A study of Homo sapiens with 9 samples.

Results

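The ATP-binding cassette (ABC) transporters were taken as the protein-coding genes named ABCA to ABCG followed by a number, which gave 45 of the 58735 genes counted. RNA had been sequenced in 9 libraries of MDA-MB-231, a widely used line of triple-negative breast cancer, with 3 libraries in each of 3 conditions. Vehicle-treated cells received DMSO, erastin-R cells had survived rising concentrations of erastin, an inhibitor of the cystine importer system xc-, and RSL3-R cells had survived rising concentrations of RSL3, an inhibitor of the lipid peroxide-reducing enzyme GPX4. All groups came from 1 cell line, and the labels do not say whether the libraries of a condition were separate cultures, so p values measure only the spread between these libraries. Of the 45 genes, 32 had 10 or more counts in at least 3 libraries, and 31 of these also passed edgeR's filter and have a fold change among the 16188 genes tested.

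ABC proteins share a nucleotide-binding domain that hydrolyses ATP. Most use it to move lipids, conjugates, drugs, peptides or metabolites across a membrane, while subfamilies E and F have no membrane domain and act on the ribosome. In tumour cells the family is best known for efflux pumps that lower drug levels, and ABCC1 and its relatives also export glutathione, the thiol that GPX4 uses, and its conjugates.

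Total counts ranged from 15405102 to 17273464 per library, and ABC genes took 0.137% to 0.160% of them. Levels are in CPM, counts per 1000000 of each library's TMM-scaled total, and levels of different genes are compared as CPM per kb of exon. Changes are given as log2FC, the log2 of the fold change between conditions. A gene was called changed at an adjusted p under 0.05 from edgeR's quasi-likelihood test, and separately with an absolute log2FC of at least 1. The square root of edgeR's common dispersion was 8.56%. It is a single estimate, shared by all genes, of the variation between replicates beyond counting error. Erastin-R replicate 1 stood apart from the other erastin-R libraries on the third principal component of all genes (-35.7 against 14.4 and 13.0). The counts over all ABC genes with a fold change were also computed without it, but those of subfamilies and other gene lists were not. Of 9 marker genes, VIM (1347 to 1475 CPM by condition) and CD44 (234 to 314 CPM) were high, ESR1 and PGR were below 1 CPM in every library, and EPCAM had condition means of 1.32 to 2.15 CPM. CDH1 had 1.14, 0.751 and 3.44 CPM in vehicle-treated, erastin-R and RSL3-R cells and rose in the last (log2FC 1.58, adjusted p = 0.0013). ERBB2 was also listed as low, but had means of 93.3, 81.9 and 62.0 CPM in vehicle-treated, erastin-R and RSL3-R cells. Its log2FC was -0.19 in erastin-R (adjusted p = 0.0352) and -0.59 in RSL3-R cells (adjusted p = 1.21e-05). CD44 had -0.15 (adjusted p = 0.0343) and -0.43 (adjusted p = 3.42e-05). The blood cell gene PTPRC and the endothelial gene PECAM1 were listed as absent. Together they summed to 9.87 to 11.2 CPM in vehicle-treated, 1.46 to 2.80 CPM in erastin-R and 13.0 to 15.3 CPM in RSL3-R libraries. Most of this was PECAM1, with a log2FC of -2.47 in erastin-R (adjusted p = 8.28e-08) and 0.36 in RSL3-R cells (adjusted p = 0.0469). PTPRC alone had means of 0.424, 0.343 and 1.37 CPM in vehicle-treated, erastin-R and RSL3-R cells. It rose in RSL3-R cells (log2FC 1.67, adjusted p = 0.00818) on at most 24 counts. Mitochondrially encoded genes took 7.97% to 8.93%, 5.55% to 7.95% and 9.52% to 10.2% of counts in the same order. The part of these genes in the results below was not tested.

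Without a minimum fold change, ABC genes were called about as often as all genes. In erastin-R cells 8 of the 31 were higher than in vehicle-treated cells, against 27.1% of all genes tested, and 7 were lower, against 26.8%. With the minimum fold change these counts were 3 higher (all genes, 6.70%) and 2 lower (6.66%). In RSL3-R cells 8 were higher (all genes, 23.8%) and 9 lower (24.9%), or 5 higher (6.02%) and 3 lower (4.08%) with the minimum fold change. As shares of the 31 genes, the counts with the minimum fold change were 9.68% and 6.45% in erastin-R and 16.1% and 9.68% in RSL3-R cells, and 3 of the 5 higher genes in RSL3-R cells (ABCA6, ABCA10 and ABCC9) had at most 33 counts in any library. ABCA10 and ABCC9 reached 10 counts only in the 3 RSL3-R libraries, so they passed the filter through the condition where they were high. ABCA6 had 14, 13 and 9 counts in vehicle-treated and 3 in each erastin-R library. It met the count rule (10 or more counts in at least 3 libraries) only with the RSL3-R libraries. The RSL3-R counts of higher genes, with and without the minimum fold change, include these 3 genes. Without erastin-R replicate 1 the 4 erastin-R counts became 8, 7, 2 and 2, in the same order. Over all 16619 genes then tested they were 4917, 5040, 1253 and 1320. The median log2FC of the 31 genes was 0.09 for erastin-R and 0.03 for RSL3-R cells, against -0.004 and 0.005 over all genes tested. The vehicle-treated libraries are shared by both comparisons. ABCA1, ABCA3, ABCC2 and ABCC3 were higher in both, ABCB8, ABCB10, ABCC5, ABCD3 and ABCF1 were lower in both, and ABCA6 was lower in erastin-R but higher in RSL3-R cells. The share of all genes called the same way in both was not computed, so these lists are not read as particular to ABC genes.

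**Figure D1:**
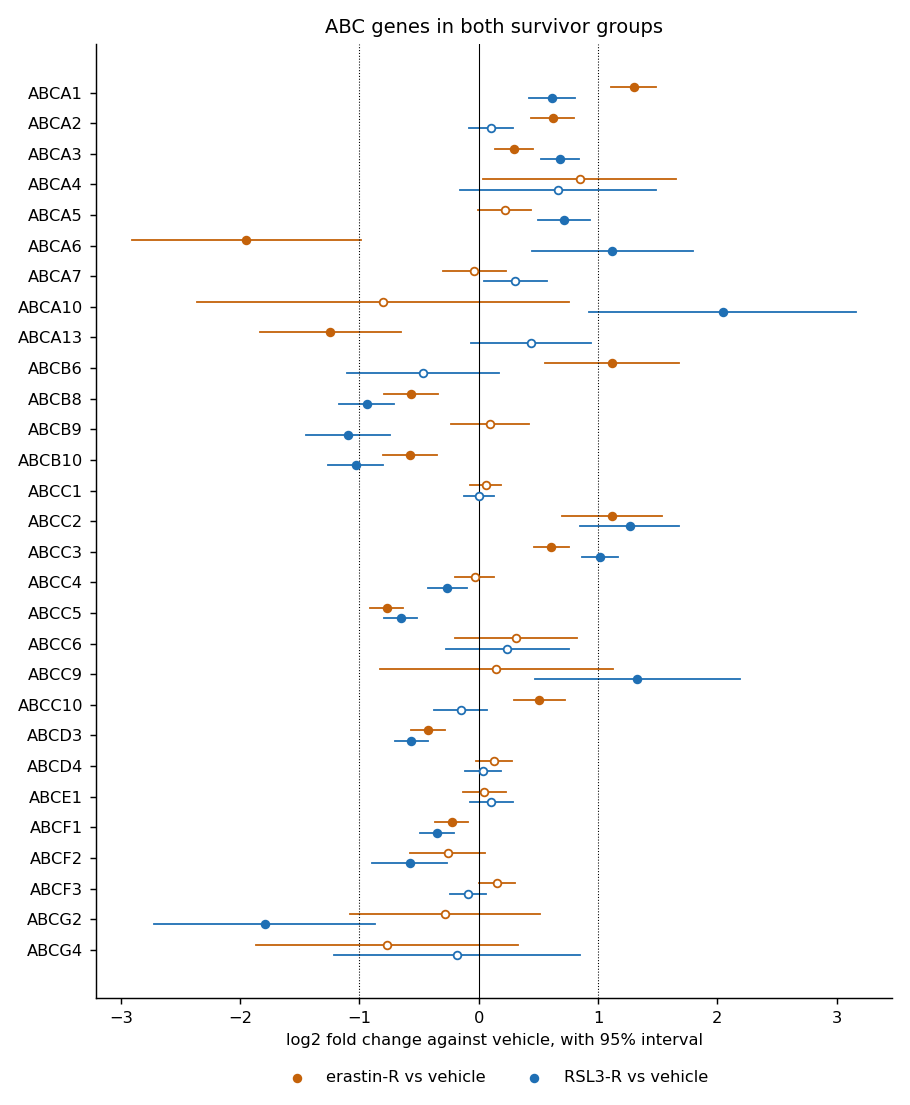
Log2 fold change (log2FC) (horizontal axis) of 29 of the ABC genes with a fold change, in erastin-R (orange) and RSL3-R cells (blue) against vehicle-treated cells, with 95% intervals from edgeR. Filled points passed an adjusted p of 0.05 and dotted lines mark a log2FC of 1 in either direction. Intervals are widest for ABCA10, ABCA6, ABCG2, ABCG4 and ABCC9, which have few counts, and ABCA6 lies at -1.95 for erastin-R and 1.12 for RSL3-R.

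Among the drug efflux pumps, 7 of 10 had a fold change. ABCC2 and ABCC3 rose in both survivor groups, ABCC10 rose in erastin-R cells, ABCC5 fell in both, ABCG2 and ABCC4 fell in RSL3-R cells, and ABCC1 was called in neither. ABCB1 (P-glycoprotein, MDR1), the classical multidrug pump, had at most 4 counts in any library.

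ABCC3 (MRP3, ENSG00000108846, GRCh38 chromosome 17 from 50634777 to 50692252) exports glucuronides and bile salts at the basolateral membrane. It had 146, 144 and 122 CPM in the 3 vehicle-treated libraries, 205, 206 and 218 CPM in erastin-R and 273, 285 and 273 CPM in RSL3-R. The 3 conditions did not overlap, with RSL3-R the highest. Its log2FC was 0.61 in erastin-R (SE 0.07, adjusted p = 6.28e-06) and 1.01 in RSL3-R cells (SE 0.07, adjusted p = 5.28e-08), and the RSL3-R value ranged from 0.93 to 1.08 over the alternatives, falling under 1 without vehicle replicate 3 and without RSL3-R replicate 2. Per length, ABCC3 was below ABCC1 in vehicle-treated cells (14.3 ± 1.38 against 17.3 ± 0.66 CPM per kb, SD, n = 3), above it in erastin-R (21.8 ± 0.74 against 18.01 ± 0.84) and above it in RSL3-R cells (28.8 ± 0.71 against 17.3 ± 0.54), with no overlap of the libraries in any condition. The order of these levels rests on gene lengths that include every annotated exon.

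ABCC1 (MRP1, ENSG00000103222, chromosome 16 from 15949577 to 16143074), the exporter of glutathione and glutathione conjugates, had 136, 130 and 127 CPM in vehicle-treated, 130, 137 and 143 CPM in erastin-R and 127, 135 and 132 CPM in RSL3-R libraries. All 3 conditions overlapped. The 95% interval of its log2FC was -0.07 to 0.19 in erastin-R and -0.13 to 0.13 in RSL3-R cells.

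ABCC2 (MRP2, ENSG00000023839, chromosome 10 from 99782640 to 99852594), which exports glutathione and glucuronide conjugates at the apical membrane, was a low-level gene with 3.58, 2.41 and 2.59 CPM in vehicle-treated, 7.50, 5.73 and 5.41 CPM in erastin-R and 7.61, 6.21 and 6.90 CPM in RSL3-R libraries. Every survivor library lay above every vehicle-treated one, and the survivor groups overlapped each other. The log2FC was 1.12 in erastin-R (SE 0.19, adjusted p = 0.000266) and 1.27 in RSL3-R cells (SE 0.19, adjusted p = 0.0001). Without erastin-R replicate 1, the highest of its group, the erastin-R value was 0.96.

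ABCC5 (MRP5, ENSG00000114770, chromosome 3 from 183919934 to 184018015), an exporter of cyclic nucleotides and nucleotide analogues, had 77.1, 72.9 and 74.8 CPM in vehicle-treated libraries, 45.3, 42.9 and 43.2 CPM in erastin-R and 48.5, 46.4 and 47.8 CPM in RSL3-R. Vehicle-treated libraries were the highest and no groups overlapped. It fell by 0.77 on the log2 scale in erastin-R (SE 0.06, adjusted p = 2.83e-07) and by 0.66 in RSL3-R cells (SE 0.06, adjusted p = 1.50e-06). ABCC10 (MRP7, ENSG00000124574, chromosome 6 from 43427366 to 43450430), which exports taxanes and other drugs, had 40.5, 39.8 and 36.6 CPM in vehicle-treated, 46.6, 57.7 and 62.2 CPM in erastin-R and 32.1, 36.9 and 36.4 CPM in RSL3-R libraries. Only the erastin-R libraries lay apart from the vehicle-treated ones, with replicate 1 the lowest of them. Its log2FC was 0.51 in erastin-R cells (SE 0.10, adjusted p = 0.000754), 0.62 without replicate 1, and -0.15 in RSL3-R cells (95% interval -0.37 to 0.07).

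ABCG2 (BCRP, ENSG00000118777, chromosome 4 from 88090264 to 88231322), which exports drugs, urate and porphyrins, had 2.38, 2.35 and 2.96 CPM in vehicle-treated, 2.08, 1.91 and 2.31 CPM in erastin-R and 0.387, 0.249 and 1.52 CPM in RSL3-R libraries. The RSL3-R libraries were all below the others, but unevenly, with 6, 4 and 26 counts in replicates 1 to 3. Against vehicle the log2FC in RSL3-R cells was -1.80 (SE 0.43, adjusted p = 0.00341), and it was -2.95 without RSL3-R replicate 3 and -1.39 without RSL3-R replicate 2. In erastin-R cells it was -0.29 (95% interval -1.08 to 0.51). ABCC4 (MRP4, ENSG00000125257, chromosome 13 from 95019829 to 95301475), an exporter of cyclic nucleotides and prostaglandins, had 53.7, 50.5 and 54.0 CPM in vehicle-treated, 50.4, 53.3 and 50.6 CPM in erastin-R and 45.3, 47.2 and 39.5 CPM in RSL3-R libraries. RSL3-R libraries lay below the rest. The log2FC there was -0.26 (SE 0.08, adjusted p = 0.0123), but -0.15 (adjusted p = 0.151) without RSL3-R replicate 3.

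**Figure D2:**
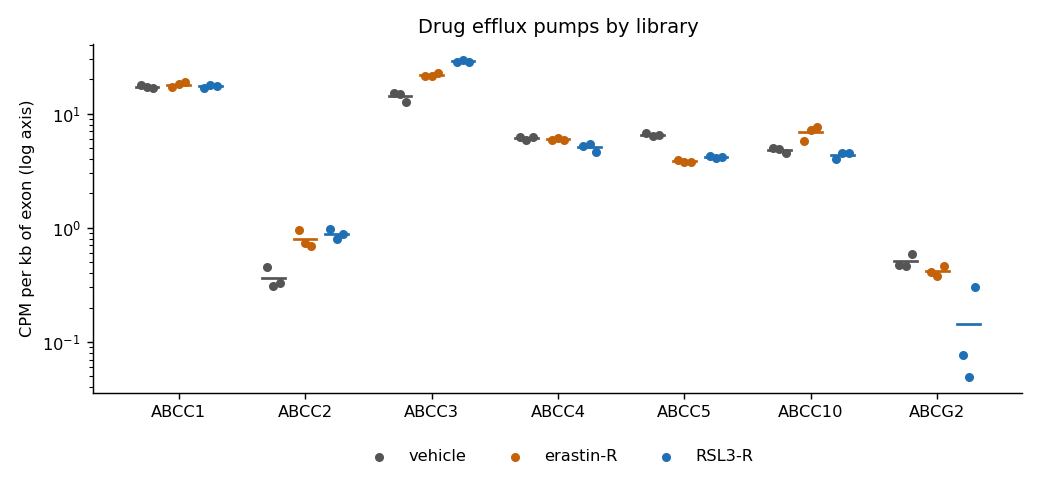
CPM per kb of exon (log axis) of the 7 drug efflux pumps with a fold change, 1 point per library and a bar at the mean of each condition (grey vehicle, orange erastin-R, blue RSL3-R). ABCC3 climbs from a mean of 14.3 in vehicle-treated to 28.8 CPM per kb in RSL3-R cells, ABCC1 stays between 17.3 and 18.01, and 1 RSL3-R library of ABCG2 stands above the other two.

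The remaining pumps had too few counts for a fold change. ABCC11 (MRP8) had 2 to 7 counts per library and shares 4.04% of its exon bases with LONP2 on the opposite strand, and ABCC12 (MRP9) had at most 8 counts.

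Subfamily A moves lipids and sterols. Of its 9 genes with a fold change, 5 were higher and 0 lower in RSL3-R cells (all genes, 23.8% and 24.9%), with a median log2FC of 0.66. Among the 5 are ABCA6 and ABCA10, which met the count rule only with the RSL3-R libraries. In erastin-R cells 3 were higher and 2 lower (all genes, 27.1% and 26.8%), with a median of 0.22. ABCA1 (ENSG00000165029, chromosome 9 from 104781002 to 104928237), which loads cholesterol and phospholipid onto apolipoprotein A-I, had 16.4, 17.5 and 15.5 CPM in vehicle-treated, 37.7, 43.2 and 40.6 CPM in erastin-R and 25.4, 24.4 and 25.8 CPM in RSL3-R libraries. The conditions did not overlap and erastin-R was the highest. It rose 2.46-fold in erastin-R (log2FC 1.30, SE 0.09, adjusted p = 4.48e-08) and 1.53-fold in RSL3-R cells (0.61, SE 0.09, adjusted p = 6.16e-05). The direct comparison of RSL3-R with erastin-R cells gave -0.68 (adjusted p = 1.79e-05).

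ABCA2 (ENSG00000107331, chromosome 9 from 137007227 to 137028922), an endolysosomal lipid transporter, was the most expressed member of the subfamily per length, at 11.8 CPM per kb in vehicle-treated, 18.2 for erastin-R and 12.7 for RSL3-R. Its log2FC was 0.62 in erastin-R (adjusted p = 3.30e-05) and 0.10 in RSL3-R cells (95% interval -0.08 to 0.28). ABCA3 (ENSG00000167972, chromosome 16 from 2275881 to 2340746), which fills lamellar bodies with surfactant phospholipid, went the other way in rank, with 0.30 in erastin-R (adjusted p = 0.00362) and 0.68 in RSL3-R cells (adjusted p = 3.79e-06). ABCA7, a phospholipid exporter related to ABCA1, had 23.9 ± 2.91, 23.3 ± 3.94 and 29.6 ± 1.76 CPM (SD, n = 3) in vehicle-treated, erastin-R and RSL3-R cells, and its adjusted p in RSL3-R against vehicle was 0.0522. ABCA4, the retinoid transporter of photoreceptors, was near 1 CPM with 11 to 35 counts per library and was called in no comparison.

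The 5 genes ABCA8, ABCA9, ABCA6, ABCA10 and ABCA5 follow each other on the minus strand of chromosome 17. The 3 with a fold change (ABCA6, ABCA10 and ABCA5) were higher in RSL3-R cells, as were 23.8% of all genes tested. Of the 3, ABCA6 and ABCA10 met the count rule only with the RSL3-R libraries, where they were high. ABCA6 (ENSG00000154262, 69078702 to 69141888) had 0.835, 0.803 and 0.555 CPM in vehicle-treated, 0.179, 0.191 and 0.182 CPM in erastin-R and 1.68, 1.31 and 1.81 CPM in RSL3-R libraries. No conditions overlapped. The level rests on 9 to 14, 3 and 21 to 31 counts per library, so erastin-R lay at the lowest level taken as detected (3 counts). The log2FC was -1.95 in erastin-R (SE 0.45, adjusted p = 0.00212) and 1.12 in RSL3-R cells (SE 0.31, adjusted p = 0.00923), and after quantile normalization it was -1.19 and 0.78. Against erastin-R, the RSL3-R level was higher by 3.07 (adjusted p = 2.98e-05).

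ABCA10 (ENSG00000154263, 69147214 to 69244846) had 0.298, 0.371 and 0.308 CPM in vehicle-treated, 0.357, 0 and 0.182 CPM in erastin-R and 0.967, 1.18 and 1.93 CPM in RSL3-R libraries. Only RSL3-R stood apart, with 15, 19 and 33 counts. The log2FC in RSL3-R cells was 2.04 (SE 0.52, adjusted p = 0.00505) and was 1.35 after quantile normalization, for a gene that entered the test only through these libraries. In erastin-R cells it was -0.80 (95% interval -2.36 to 0.75). ABCA5 (ENSG00000154265, 69244311 to 69327244), the best counted of the 5 genes, had 14.3 ± 1.33 CPM in vehicle-treated, 16.6 ± 1.0005 for erastin-R and 23.4 ± 1.02 for RSL3-R (SD, n = 3), with log2FC values of 0.22 (adjusted p = 0.0891) and 0.71 (adjusted p = 4.97e-05). ABCA5 and ABCA10 share 318 exon bases on the same strand, which are 3.78% of those of ABCA10. ABCA9 had 6, 0 and 4 counts in vehicle-treated, 2, 4 and 2 in erastin-R and 12, 8 and 10 in RSL3-R libraries, too few for a fold change, and ABCA8 had at most 3.

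**Figure D3:**
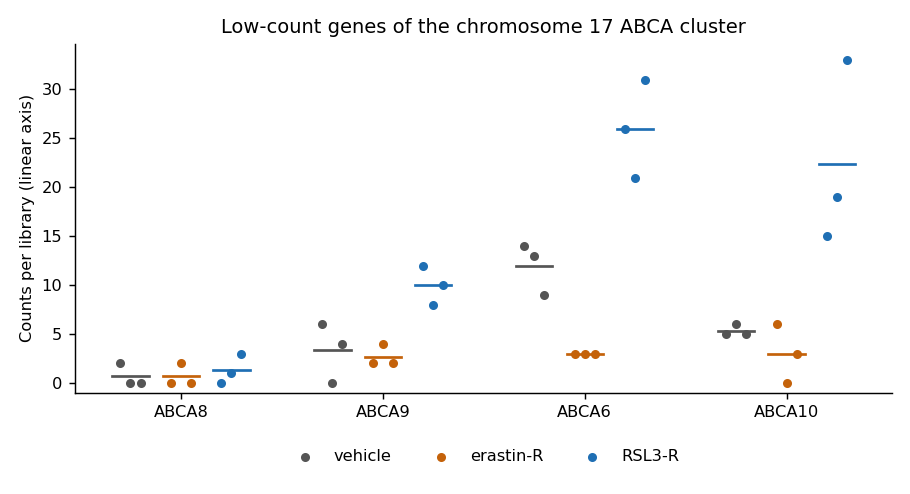
Counts per library (linear axis, not scaled for depth) of ABCA8, ABCA9, ABCA6 and ABCA10, 1 point per library and a bar at the mean of each condition (grey vehicle, orange erastin-R, blue RSL3-R). RSL3-R libraries lie highest for ABCA9 (8 to 12 counts), ABCA6 (21 to 31) and ABCA10 (15 to 33), and no library exceeds 3 counts for ABCA8.

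ABCA13 (ENSG00000179869, chromosome 7 from 48171458 to 48647496) had 1.91, 2.53 and 1.97 CPM in vehicle-treated, 1.07, 0.827 and 0.790 CPM in erastin-R and 2.71, 3.54 and 2.45 CPM in RSL3-R libraries. Erastin-R libraries were all below the vehicle-treated ones, which overlapped with RSL3-R. It fell by 1.24 on the log2 scale in erastin-R cells (SE 0.27, adjusted p = 0.00164) and had a log2FC of 0.44 in RSL3-R cells (95% interval -0.07 to 0.94). ABCA12, a lipid transporter of keratinocytes, had at most 2 counts.

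Subfamily B holds peptide, drug and mitochondrial transporters, and in RSL3-R cells 0 of its 5 genes with a fold change were higher and 3 were lower (all genes, 23.8% and 24.9%), with a median log2FC of -0.94. ABCB10 (ENSG00000135776, chromosome 1 from 229516582 to 229558695), an inner mitochondrial membrane transporter of heme-forming cells, had 37.6, 41.7 and 43.4 CPM in vehicle-treated, 23.0, 29.1 and 30.2 CPM in erastin-R and 19.9, 21.6 and 18.6 CPM in RSL3-R libraries. No conditions overlapped. It fell by 0.58 on the log2 scale in erastin-R (SE 0.11, adjusted p = 0.000388) and by 1.03 in RSL3-R cells (SE 0.11, adjusted p = 3.24e-06), with a range of -1.09 to -0.94 over the alternatives. ABCB8 (ENSG00000197150, chromosome 7 from 151028422 to 151047782), also of the inner mitochondrial membrane, had 51.8 ± 4.25, 35.0 ± 4.76 and 27.0 ± 2.30 CPM (SD, n = 3) in vehicle-treated, erastin-R and RSL3-R cells and fell by 0.57 (adjusted p = 0.000394) and 0.94 (adjusted p = 6.44e-06).

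ABCB6 (ENSG00000115657, chromosome 2 from 219209766 to 219219017), a porphyrin transporter, had 3.28, 2.10 and 1.79 CPM in vehicle-treated, 4.88, 5.54 and 5.17 CPM in erastin-R and 2.39, 1.80 and 1.05 CPM in RSL3-R libraries. Erastin-R stood above both other conditions, which overlapped. The log2FC was 1.11 in erastin-R cells (SE 0.26, adjusted p = 0.00251) with a range of 0.94 to 1.41 over the alternatives, -0.46 in RSL3-R cells (95% interval -1.10 to 0.17), and -1.58 between RSL3-R and erastin-R cells (adjusted p = 0.000319). A readthrough gene on the same strand shares 54.7% of its exon bases and held 63 counts over the 9 libraries against 456 for ABCB6, and how reads in shared exons were assigned is not stated. In bulk RNA a lower level in every cell and fewer cells with the transcript cannot be told apart, here as for the other genes.

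ABCB9 (TAPL, ENSG00000150967, chromosome 12 from 122920951 to 122981649), a lysosomal peptide transporter, had 15.1, 14.2 and 11.7 CPM in vehicle-treated, 11.6, 14.3 and 17.8 CPM in erastin-R and 6.25, 7.02 and 5.90 CPM in RSL3-R libraries. RSL3-R lay below both other conditions, which overlapped. It fell by 1.09 on the log2 scale in RSL3-R cells (SE 0.16, adjusted p = 9.00e-05) and had a log2FC of 0.09 in erastin-R cells (95% interval -0.23 to 0.42). Of its exon bases, 20.7% overlap AC026362.1 (0 counts over the 9 libraries), 12.5% OGFOD2 and 11.96% ARL6IP4, all on the opposite strand. Without a stated strand setting such reads cannot be told apart. The bile transporters ABCB4 (2 to 8 counts) and ABCB11 (0 counts in all 9 libraries) and ABCB5 (at most 2 counts) have no fold change.

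**Figure D4:**
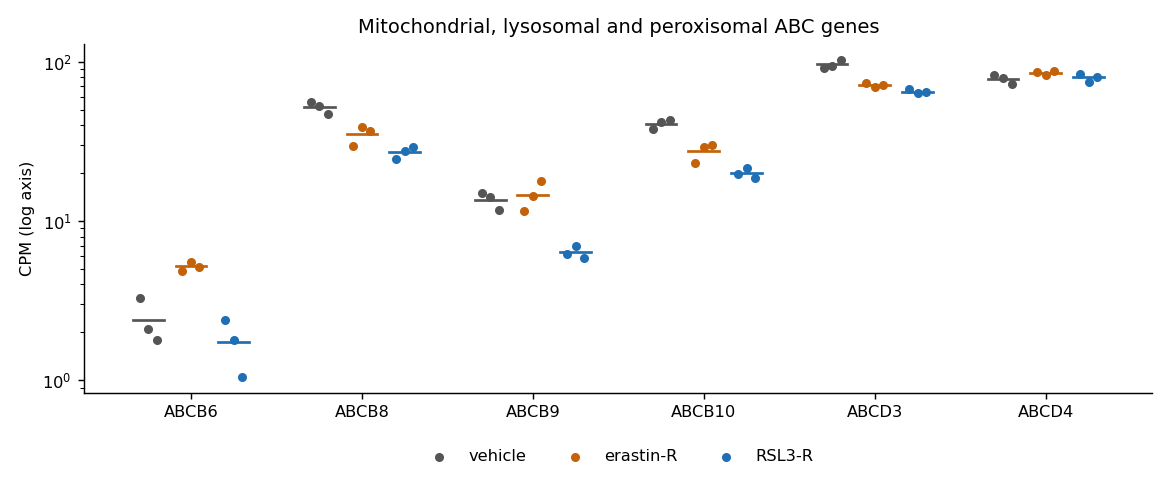
CPM (log axis) of 6 mitochondrial, lysosomal and peroxisomal ABC genes, 1 point per library and a bar at the mean of each condition (grey vehicle, orange erastin-R, blue RSL3-R). ABCB8, ABCB10 and ABCD3 are highest in vehicle-treated cells, ABCB6 in erastin-R cells, ABCB9 is lowest in RSL3-R cells at 5.90 to 7.02 CPM, and the conditions overlap for ABCD4.

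Outside the pumps, subfamily C held 2 genes with a fold change. ABCC9 (ENSG00000069431, chromosome 12 from 21797401 to 21942529), the sulfonylurea receptor 2 subunit of KATP channels, had 0.358, 0.432 and 0.370 CPM in vehicle-treated, 0.536, 0.509 and 0.243 CPM in erastin-R and 0.838, 0.994 and 1.11 CPM in RSL3-R libraries. RSL3-R stood above both other conditions, on 13, 16 and 19 counts, and the gene passed the filter only through them. Its log2FC was 1.33 in RSL3-R cells (SE 0.40, adjusted p = 0.0133), 0.82 after quantile normalization, and 0.15 in erastin-R cells (95% interval -0.83 to 1.12). ABCC6, needed for the ATP release that prevents calcification, had 36 to 68 counts per library and was called in no comparison, and its reads may be divided with the pseudogene copies ABCC6P1 and ABCC6P2, which had at most 14 counts each. ABCC8, the sulfonylurea receptor 1, had 3 counts in 1 erastin-R library and 0 in the others.

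Subfamily D holds the peroxisomal acyl-CoA importers and a lysosomal cobalamin exporter. ABCD3 (PMP70, ENSG00000117528, chromosome 1 from 94418455 to 94518666), the importer of branched acyl-CoA and bile acid precursors, had 96.1 ± 5.92 CPM in vehicle-treated, 71.5 ± 2.06 for erastin-R and 65.0 ± 2.23 for RSL3-R (SD, n = 3) and fell by 0.43 (adjusted p = 9.20e-05) and 0.56 (adjusted p = 8.91e-06) on the log2 scale. ABCD2, a peroxisomal importer of fatty acyl-CoA, had 10, 11 and 14 counts in vehicle-treated, 3, 0 and 0 in erastin-R and 3, 7 and 3 in RSL3-R libraries. It met the count rule only with the vehicle-treated libraries, where it was high, and did not pass edgeR's filter. The values that follow describe a gene taken in through that condition. From the summed counts and library sizes, its level in erastin-R was 0.0861 times that in vehicle-treated cells (95% counting interval 0.0169 to 0.273, 3 against 35 counts) and in RSL3-R cells 0.375 times (0.182 to 0.726, 13 against 35 counts). Fitted without the filter, the adjusted p was 0.000272 for erastin-R and 0.122 for RSL3-R. ABCD4 was called in no comparison, with a range of condition means of 78.0 to 85.3 CPM.

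Subfamilies E and F act on ribosomes. ABCF1 (ENSG00000204574, chromosome 6 from 30571376 to 30597179), which binds eIF2 and ribosomes in translation initiation, was the highest ABC gene in every condition, at 46.6 ± 2.11, 39.9 ± 3.22 and 36.7 ± 0.65 CPM per kb (SD, n = 3) in vehicle-treated, erastin-R and RSL3-R cells. It fell by 0.23 (adjusted p = 0.00952) and 0.35 (adjusted p = 0.000587) on the log2 scale. ABCE1 (ENSG00000164163, chromosome 4 from 145097932 to 145129179), which splits ribosomes for recycling, was next in vehicle-treated cells at 20.2 CPM per kb, with log2FC values of 0.05 (95% interval -0.13 to 0.22) and 0.11 (-0.07 to 0.29). ABCF2 (ENSG00000033050, chromosome 7 from 151212490 to 151227230) fell by 0.58 in RSL3-R cells (adjusted p = 0.00487), and in erastin-R cells replicate 1 (18.1 CPM) stood below replicates 2 and 3 (29.2 and 29.7 CPM), so that the log2FC was -0.26 with it and -0.06 without it. AC021097.2 on the same strand shares 45.8% of the exon bases of ABCF2. It held 1 count over the 9 libraries against 3765 for ABCF2, and how reads in shared exons were assigned is not stated. ABCF3 (ENSG00000161204, chromosome 3 from 184186023 to 184194012) had log2FC values of 0.15 and -0.09 against vehicle, with adjusted p of 0.0801 and 0.307. After ABCF1 and ABCE1, the next vehicle levels were those of ABCC1 (16.7 to 18.01 CPM per kb), ABCF3 (14.5 to 16.6) and ABCC3 (12.7 to 15.1), of which ABCF3 and ABCC3 overlapped.

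In subfamily G, apart from ABCG2, only ABCG4, a cholesterol transporter related to ABCG1, had a fold change (3 to 18 counts per library, called in no comparison). ABCG1, which moves cholesterol to high-density lipoprotein, had 0 counts in all vehicle-treated and erastin-R libraries and 5, 3 and 6 in RSL3-R. The sterol exporter subunits ABCG5 and ABCG8 had at most 1 and 2 counts.

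Summed over all 45 genes, the level was 201 to 212 CPM per kb in vehicle-treated, 212 to 216 in erastin-R and 200.3 to 201.5 in RSL3-R libraries. Subfamily B summed to 19.8 to 20.5, 15.2 to 17.5 and 12.04 to 12.5 CPM per kb, subfamily F to 66.2 to 72.2, 60.5 to 66.0 and 55.5 to 57.1, and subfamily C to 47.4 to 52.2, 55.4 to 60.1 and 60.1 to 63.0. Subfamily A summed to 21.7 to 23.8, 28.7 to 35.4 and 29.2 to 29.6. Without ABCC3 the sum of subfamily C was 34.8 to 37.01, 34.1 to 37.5 and 31.7 to 33.4. In RSL3-R libraries the sums of subfamilies B, D, F and G lay below those of every vehicle-treated library and the sums of A and C above them, but that of C without ABCC3 lay below them. Of all single genes tested, 30.4% lay above and 31.4% below in this way. ABCF1 (46.6 in vehicle-treated and 36.7 CPM per kb in RSL3-R cells), ABCG2 (0.508 and 0.142) and ABCA2 (11.8 and 12.7) weigh heavily in the sums of F, G and A. Sums without them were not computed.

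RSL3-R and erastin-R cells were also compared directly. RSL3-R cells had 8 of the 31 genes higher (all genes, 22.3%) and 11 lower (26.9%), or 4 higher (6.86%) and 3 lower (3.48%) with the minimum fold change, and the median log2 difference was -0.12 against -0.024 over all genes. Subfamily A held 6 of the 8 higher genes. ABCA6, ABCA10, ABCA13 and ABCC9 were higher with the minimum fold change, and ABCB6, ABCB9 and ABCG2 were lower. Of these, ABCA6, ABCA10 and ABCC9 met the count rule only with the RSL3-R libraries. They entered both counts of higher genes through the condition where they were high. Without erastin-R replicate 1 the counts were 8, 12, 4 and 3, in the same order. Over all 16619 genes then tested they were 4503, 4989, 1354 and 789.

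The genes that act with or regulate these transporters were described from a list of 20, of which 17 were tested. In erastin-R cells 7 were higher and 3 lower (all genes, 27.1% and 26.8%), and in RSL3-R cells 5 and 3 (23.8% and 24.9%). APOE, a lipid acceptor of ABCA1, rose by 1.64 on the log2 scale in erastin-R (adjusted p = 2.37e-06) and 1.13 in RSL3-R cells (adjusted p = 0.000109), and MYLIP, like ABCA1 a target of the LXR sterol receptors, by 0.96 (adjusted p = 2.37e-05) and 0.54 (adjusted p = 0.00323). The receptors themselves, NR1H2 and NR1H3, had log2FC values of 0.15 and -0.27 in erastin-R (adjusted p = 0.137 and 0.0403) and 0.01 and -0.01 in RSL3-R cells. NFE2L2, which encodes the oxidant response factor NRF2, rose by 0.53 in RSL3-R cells (adjusted p = 0.00247), where its inhibitor KEAP1 fell by 0.40 (adjusted p = 0.00632), and in erastin-R cells the values were 0.17 and -0.05 (adjusted p = 0.239 and 0.737). The xenobiotic receptor gene NR1I3 rose by 1.11 in erastin-R cells (adjusted p = 0.0151) on at most 32 counts, and NR1I2 had at most 1 count.

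Partners of the ribosome-bound members were mixed. PELO and HBS1L, which act with ABCE1 in ribosome rescue, rose by 0.55 and 0.56 in erastin-R cells (adjusted p = 1.84e-05 and 2.32e-05) and had log2FC values of 0.12 and 0.05 in RSL3-R cells (adjusted p = 0.180 and 0.601). Of the eIF2 subunits bound by ABCF1, EIF2S1 fell in both (by 0.36 and 0.44), EIF2S2 rose in both (0.19 and 0.68), and EIF2S3 fell by 0.52 in erastin-R cells, at adjusted p of 0.0251 or less. LMBRD1, the partner of ABCD4, rose by 0.48 in RSL3-R cells (adjusted p = 0.000352). Of the genes that insert peroxisomal membrane proteins, PEX19 rose by 0.27 in erastin-R (adjusted p = 0.00382) and PEX3 fell by 0.47 in RSL3-R cells (adjusted p = 0.0108). KCNJ8, a pore of KATP channels, was lower in RSL3-R than in erastin-R cells (log2 difference -1.38, adjusted p = 0.0407) on at most 21 counts.

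Promoters were read from RefSeq (GRCh38.p14) for the 35 members with an entry, as the 250 bases before each annotated start, and searched on both strands for the antioxidant response element core TGACNNNGC, the E-box CACGTG and the CHOP-ATF4 core TGATGNAA. These were found in 10.9%, 6.34% and 3.14% of all 35116 promoters, and in 16.98%, 16.98% and 1.89% of the 53 promoters of ABC genes. ABCA2, ABCB6 and ABCC10, which were higher in erastin-R and not called in RSL3-R cells, are shown, since each holds an antioxidant response element core. In all, 9 of the 35 genes hold one. The other carriers went other ways: ABCA3 was higher in both survivor groups and ABCF1 lower in both. ABCB9 and ABCC4 were lower in RSL3-R cells only, and ABCD4 and ABCG4 were called in neither. In ABCB6 the core overlaps an E-box, and ABCC10 also holds an E-box. ABCC2, which rose in both, and ABCB10, which fell in both, hold none of these motifs and are shown beside them. ABCA2 and ABCC10 have further promoter entries that hold none. A match describes letters only, and this grouping was made after the values were seen. Capitals mark the matches. The windows lie at chr2:219218959-219219208, minus strand (ABCB6), chr6:43427291-43427540, plus strand (ABCC10), chr9:137028923-137029172, minus strand (ABCA2), chr10:99782390-99782639, plus strand (ABCC2) and chr1:229558708-229558957, minus strand (ABCB10).
ABCB6: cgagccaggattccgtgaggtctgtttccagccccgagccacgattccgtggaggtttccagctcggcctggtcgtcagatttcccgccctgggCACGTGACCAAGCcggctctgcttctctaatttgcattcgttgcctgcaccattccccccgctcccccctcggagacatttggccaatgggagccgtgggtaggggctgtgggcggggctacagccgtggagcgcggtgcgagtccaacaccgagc
ABCC10: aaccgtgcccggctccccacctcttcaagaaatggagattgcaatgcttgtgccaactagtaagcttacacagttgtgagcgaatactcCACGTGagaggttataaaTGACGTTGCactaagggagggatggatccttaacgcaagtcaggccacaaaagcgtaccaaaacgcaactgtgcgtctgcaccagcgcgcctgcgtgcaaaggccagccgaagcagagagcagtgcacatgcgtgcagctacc
ABCA2: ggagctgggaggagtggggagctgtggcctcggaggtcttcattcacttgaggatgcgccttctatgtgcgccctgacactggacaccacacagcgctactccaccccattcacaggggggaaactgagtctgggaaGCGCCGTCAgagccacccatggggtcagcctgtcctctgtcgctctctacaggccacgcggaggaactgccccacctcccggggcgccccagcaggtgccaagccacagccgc
ABCC2: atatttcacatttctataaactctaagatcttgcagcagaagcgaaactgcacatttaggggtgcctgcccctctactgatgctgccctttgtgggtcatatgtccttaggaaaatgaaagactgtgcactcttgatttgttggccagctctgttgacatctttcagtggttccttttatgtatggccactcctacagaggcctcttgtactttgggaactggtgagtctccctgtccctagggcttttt
ABCB10: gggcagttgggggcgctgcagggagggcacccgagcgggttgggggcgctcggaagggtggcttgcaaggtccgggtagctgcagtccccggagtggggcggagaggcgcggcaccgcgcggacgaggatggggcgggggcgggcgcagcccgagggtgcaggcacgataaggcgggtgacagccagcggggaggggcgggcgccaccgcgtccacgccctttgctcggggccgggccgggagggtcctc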

How the data were processed

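Poly(A)-selected RNA of 9 MDA-MB-231 libraries had been sequenced. Per the submitters' processing notes, reads were aligned with HISAT2 2.0.5 and counted with featureCounts 1.5.0-p3, and the methods state that uniquely mapped exonic reads were used. The strand setting of the counting is not given in the sources used here. The authors deposited raw counts per gene, and FPKM values made from them, which served here only for 1 alternative filter. Start and end of 45 of the 45 ABC genes equalled GENCODE release 29 (GRCh38).

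Conditions and replicate numbers came from the sample labels. Counts were compared in R 4.3.3 with edgeR 4.0.16 (TMM, filterByExpr, quasi-likelihood test, 1 model of all 9 libraries, no covariate), with Benjamini-Hochberg adjustment over 16188 genes. Standard errors came from the log2 fold change and its F statistic. Members, gene lists, tests and alternatives were chosen with earlier results of these data known. The genes the naming rule took are named, except members that are counted in the totals but not reported here: values per library are given for the efflux pumps with a fold change and for genes past the minimum fold change in any comparison, and others by means, ranges or largest counts. Alternatives were DESeq2 1.42.0, quantile normalization with limma 3.58.1, other filters, a model of 2 conditions, a replicate block, each library left out and an unadjusted p. The edgeR, DESeq2 and limma steps were tested on simulated data with the same dispersion for every gene and no outlying library. That checked the code, not how the tests behave with the spread of these data. The floor of 3 counts was 0.175 to 0.193 CPM, and it and the counting intervals cover counting error only. Promoters were read with Python 3.11.15 and pandas 2.3.3, and figures drawn with matplotlib 3.10.9.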

Additional observations from a re-analysis of the deposited data

Results flagged for a closer look

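The 2 survivor groups differed in 19 of the 31 ABC genes by edgeR's direct test of RSL3-R against erastin-R cells. Of these, 8 were higher in RSL3-R cells (all genes tested, 22.3%) and 11 lower (26.9%). The genes given here have their log2 differences in parentheses. Genes higher in RSL3-R cells were ABCA6 (3.07), ABCA10 (2.85), ABCA13 (1.68) and ABCC9 (1.18) with the minimum fold change, and ABCA5 (0.50), ABCC3 (0.40), ABCA3 (0.39) and ABCA7 (0.34) without it. Genes lower in RSL3-R cells were ABCB6 (-1.58), ABCG2 (-1.51) and ABCB9 (-1.19) with the minimum fold change, and ABCA1 (-0.68), ABCC10 (-0.66), ABCA2 (-0.52), ABCB10 (-0.45), ABCB8 (-0.37), ABCF3 (-0.24) and ABCC4 (-0.23) without it. Adjusted p values lay between 1.79e-05 (ABCA1) and 0.0322 (ABCA7). ABCA6 is the gene that was called in opposite directions against vehicle. The count rule was met by ABCA6, ABCA10 and ABCC9 only with the RSL3-R libraries, where they were high. The calls of ABCA7, ABCB8, ABCC4, ABCC9, ABCF3 and ABCG2 were lost when at least 1 library was left out, and those of the other genes named here were not.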

How the results depend on the processing

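No fold change of an ABC gene changed sign in a way that turned a call, and of 1338 recomputed values of single genes 24 lost and 17 gained a call. With a mean FPKM of at least 5 only 13 ABC genes were tested, and the counts at an adjusted p under 0.05 became 4 higher and 3 lower in erastin-R, 2 and 5 in RSL3-R, and 2 and 3 in RSL3-R against erastin-R cells, or with the minimum fold change 0 and 0, 1 and 0, and 0 and 0. Over all 7454 genes tested with this filter, the counts in the same order were 2375 and 2331, 2219 and 2225, and 1939 and 2356. With the minimum fold change they were 247 and 191, 210 and 218, and 168 and 126. Most lost ABC genes were not tested, while in RSL3-R against erastin-R cells ABCC4 and ABCF3 were tested and lost their calls (adjusted p of 0.117 and 0.0546), and ABCB10 in RSL3-R cells fell short of the minimum fold change. A model of only erastin-R and vehicle-treated cells tested 28 ABC genes, without ABCA6, ABCA10 and ABCC9, and gave 1 lower with the minimum fold change in erastin-R cells. Over all 15558 genes tested in that model, 964 were lower with the minimum fold change. Quantile normalization gave 3 higher with the minimum fold change in RSL3-R cells, without ABCA6 and ABCC9, and the cause was not tested. Over all 16188 genes it gave 730 higher with the minimum fold change. With 1 library left out, the number higher in RSL3-R cells with the minimum fold change ranged from 3 to 5 (3 without vehicle replicate 3, which lost ABCA6 and ABCC3), and the number lower in RSL3-R than in erastin-R cells from 7 to 12 (7 without RSL3-R replicate 1, which lost ABCB8, ABCC4, ABCF3 and ABCG2). Over all genes, 955 of 16652 were higher with the minimum fold change without vehicle replicate 3. Without RSL3-R replicate 1, 3298 of 16627 were lower in RSL3-R than in erastin-R cells. ABCA7 in RSL3-R against vehicle-treated cells crossed the threshold in 9 of 14 alternatives.

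Over all genes, the share of higher genes among those past the minimum fold change in RSL3-R cells was 59.6% and became 50.4% after quantile normalization and 49.1% with the FPKM filter, and in RSL3-R against erastin-R cells 66.4%, 56.1% and 57.1%. Libraries with the same number were not closer than others (mean correlation of deviations -0.0049 for 9 pairs, 0.0026 for 18 with different numbers). The replicate block left 8 higher and 7 lower ABC genes in erastin-R cells and gave 9 higher in RSL3-R cells, where it added ABCA7 and changed no other call. Genes with few counts in at least 1 condition, such as ABCA6, ABCA10, ABCC9, ABCG2 and ABCG4, have wide intervals, and depth limits how precisely their changes are known.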

Other observations

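TAP1, TAP2 and CFTR belong to the ABC family but carry other names and were not counted above. TAP2, a subunit of the antigen peptide transporter, had 95.2 ± 7.50 CPM in vehicle-treated, 44.5 ± 1.71 CPM in erastin-R and 58.7 ± 2.12 CPM in RSL3-R cells (SD, n = 3) and fell by 1.09 (adjusted p = 4.25e-08) and 0.70 (adjusted p = 2.72e-06) on the log2 scale. TAP1, the other subunit, had 52.8 ± 3.37, 60.3 ± 9.31 and 47.8 ± 2.77 CPM, with log2 fold changes of 0.19 (adjusted p = 0.122) and -0.14 (adjusted p = 0.266). CFTR, the chloride channel of the family, had 0 counts in all 9 libraries.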
